A study of Delphinium anthriscifolium with 89 samples.

Results

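Carpels of *Delphinium anthriscifolium* at floral stage S12 were compared with carpels at floral stage S10. The 6 libraries, 3 at S12 and 3 at S10, were chosen by their sample titles from 89 libraries in all. *D. anthriscifolium* is a larkspur, a member of the buttercup family whose flowers carry a nectar spur. All carpel libraries came from plants labelled wild type (WT), with no treatment named, and were made from total RNA. The study sampled petals, sepals, stamens and carpels at S9, S10, S12 and S16, together with leaves and bracts, and 4 further libraries came from petals of plants treated by virus-induced gene silencing, which were not used here. Carpels had 2 libraries at S9, 3 at S10, 3 at S12 and 3 at S16. The labels do not state if replicate carpels were taken from different plants, or how many flowers were pooled. P-values here therefore stand for library-to-library spread, which may be technical.

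A carpel is the ovule-bearing organ at the centre of a flower. It closes early into an ovary that surrounds the ovules, and later forms a style and a stigma on which pollen germinates. Between closure and pollination the ovules develop and the wall of the ovary expands and differentiates its vascular tissue. A sample of whole carpels therefore mixes several tissues, and in such bulk RNA fewer cells of a type and less RNA per cell cannot be told apart.

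The deposited table gives estimated counts for 32115 features of an assembled transcriptome, which belong to 26584 assembly genes. The features carry IDs without gene names, so the results are described by level, stage, organ and direction, and only 4 features are named. No sequence of any feature was used here. Levels are given as CPM, the count divided by the library total and multiplied to a common scale, with library totals adjusted by the trimmed mean of M-values. Since CPM is not corrected for feature length, levels are compared between libraries and not between features. Of the 32115 features, 7613 had no count in any of the 6 libraries, and 19829 passed the filter on low counts and were tested.

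One library stood apart. The S10 libraries held 6584145, 6354134 and 4944386 counts in replicates 1 to 3, and the S12 libraries held 10196805, 12726312 and 7135899, so every S12 library was deeper than every S10 library. S10 replicate 1 detected 13139 features with at least 1 count, against 20206 and 18764 in the other 2 S10 libraries and 21300 to 22569 at S12. With all carpel libraries thinned to the same total it had 13134 features, and the other S10 and S12 libraries had 18764 to 21686. Of 11901 features at 5 CPM or more in all the other carpel libraries of at least 16000 features, 1473 (12.4%) had no count in S10 replicate 1, against at most 0.13% for the same measure in the other 5 libraries. Its log2 CPM correlated with that of its replicates at Pearson's r = 0.752 and 0.754 across features, against 0.917 between the other S10 libraries and 0.928 to 0.971 among the S12 libraries. S16 replicate 3, which enters the fit through its share in the estimate of the spread, detected 15546 features, against 20319 to 23207 in the other S9 and S16 libraries. What set these libraries apart was not tested, and the counts and the named features are given with and without them.

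**Figure D1:**
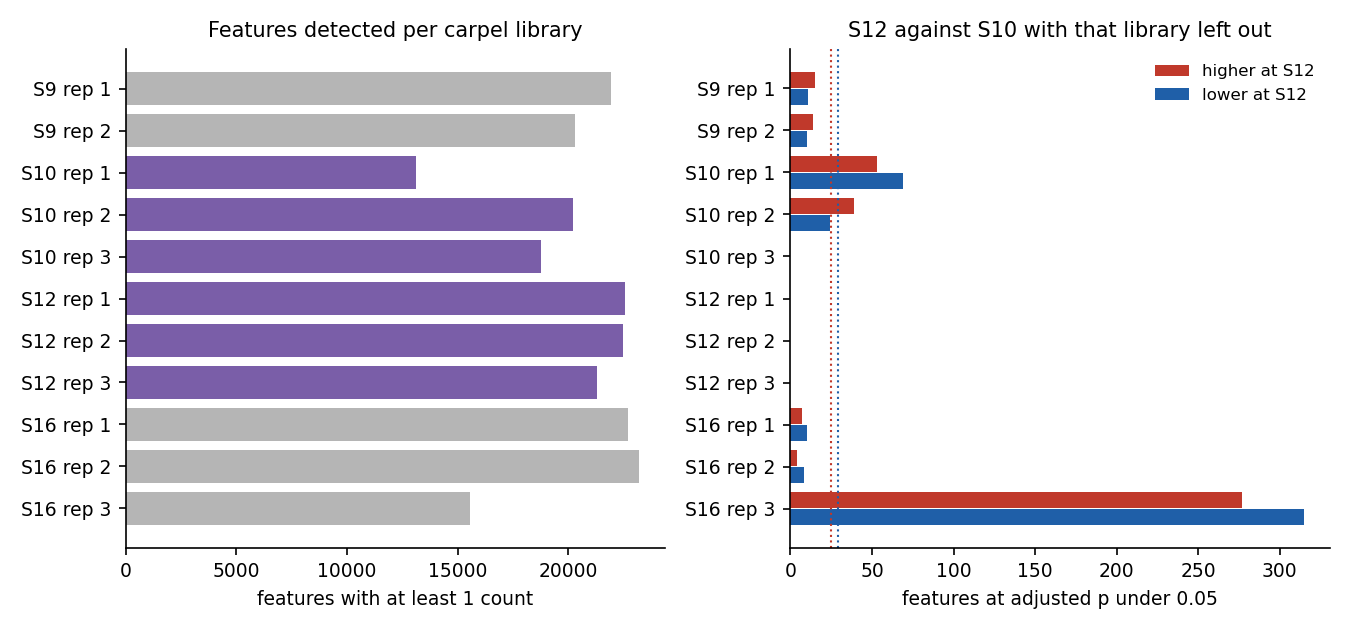
Left, the number of features with at least 1 count in each of the 11 carpel libraries, with the compared stages in purple. Right, the number of features at adjusted p under 0.05 for S12 against S10 when that library was left out, higher at S12 in red and lower in blue, with dotted lines at the 25 and 29 found with all 11 libraries; S10 replicate 1 and S16 replicate 3 have the shortest bars on the left, and leaving out S10 replicate 3 or any S12 library left 0 features.

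The carpel samples were checked against organ-enriched features, defined without the 6 compared libraries as features at least 4-fold higher in one kind of organ than in each of the others. The 84 carpel-enriched features, found in the S9 and S16 carpels, had a summed level of 8854 to 28600 CPM in the 11 carpel libraries when all 85 wild-type libraries were scaled together. On the scale of the carpel libraries alone, S16 replicate 3 had the highest sum, 33577 CPM, and the next was 14988 CPM in S10 replicate 3. In the other organs the same features summed to at most 5497 CPM on the scale of all 85 libraries, reached in a stamen library. On that scale of all 85, the 475 stamen-enriched features summed to between 1474 and 3411 CPM in carpels, against 46320 to 161200 CPM in stamens. In each of the 6 compared libraries the carpel-enriched sum was at least 9897 CPM and the stamen-enriched sum at most 2541 CPM on the scale of the carpel libraries, so none went against its label on these lists.

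Between S10 and S12, a small set of carpel features passed the test and moved by at least 2-fold. With all 11 carpel libraries in the fit, 25 features were higher at S12 (0.126% of those tested) and 29 were lower (0.146%), by edgeR's quasi-likelihood test at a Benjamini-Hochberg adjusted p under 0.05. The 25 rose by 1.22 to 12.23 on the log2 scale, with a median of 2.29. The 29 fell, with log2 changes between -9.13 and -1.21 and a median of -2.005, while the median over all tested features was 0.15. At least 4-fold changes were found for 16 of the 25 and 15 of the 29, and at least 16-fold changes for 7 and 6. In all 54 features the 3 S12 libraries did not overlap the 3 S10 libraries, a pattern that 3736 of all tested features (18.8%) showed with S12 above and 1964 (9.9%) with S12 below. At an unadjusted p under 0.05, 1824 features were higher and 1237 were lower, where 5% of the tested features is 991.

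Without S10 replicate 1 and S16 replicate 3, the same test found 1384 features higher (7.04% of 19649) and 1092 lower (5.56%). All 25 and all 29 features were among them. The remaining libraries are part of the first fit, so this overlap is no independent support. Of the larger lists, 980 and 733 moved by at least 2-fold, 397 and 206 by at least 4-fold, and 174 and 65 by at least 16-fold. The balance of rises and falls depended on the setting: voom weights gave 1073 higher and 1669 lower, the S10 and S12 libraries alone without S10 replicate 1 gave 373 and 441, and all 85 wild-type libraries in 1 fit gave 124 and 21. The biological coefficient of variation, edgeR's estimate of the spread between replicates, was 0.652 with all 11 libraries and 0.296 without the pair. The call rests on each of several libraries: edgeR's test with all other libraries in the fit found 0 features in either direction without S10 replicate 3 and without S12 replicate 1, 2 or 3. In those 4 fits 1692 to 2953 features had an unadjusted p under 0.05, and DESeq2 found 170 to 642 higher and 217 to 705 lower at an adjusted p under 0.05. Leaving out other single libraries gave 4 higher and 8 lower without S16 replicate 2, 7 and 10 without S16 replicate 1, 15 and 11 without S9 replicate 1, 14 and 10 without S9 replicate 2, 53 and 69 without S10 replicate 1, 39 and 24 without S10 replicate 2, and 277 and 315 without S16 replicate 3.

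**Figure D2:**
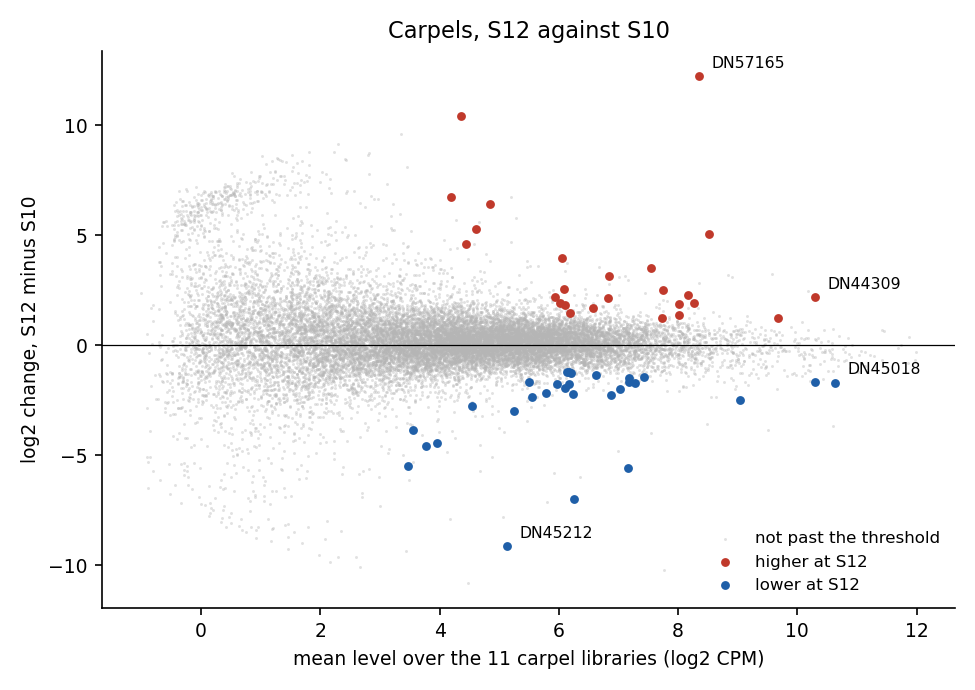
Log2 change from S10 to S12 in carpels against the mean level over the 11 carpel libraries (log2 CPM), 1 point per tested feature. The 25 features higher at S12 are red, the 29 lower are blue, the rest are grey, and the 4 named features are labelled by the first part of their ID; many low-level features with large changes in either direction remain grey.

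The feature with the largest rise was DN57165_c0_g1_i1|m.138023, which had no count in the S9 and S10 carpels. It stood at 91.1, 32.8 and 85.4 CPM in the 3 S12 libraries. At S16 it stood at 598, 605 and 2181 CPM, the last in S16 replicate 3. The feature was thus absent from the counts of all 5 carpel libraries of the first stages and present in all 6 of the later ones. Against a floor of 3 counts over the 3 S10 libraries, its level at S12 was at least 386-fold higher, with an edgeR adjusted p of 0.0265. Without S10 replicate 1 and S16 replicate 3 the edgeR adjusted p was 0.0011. In leaves, bracts and stamens it reached at most 3.69 CPM, on the scale of all 85 wild-type libraries. Outside carpels at S12, it stood at 3.55 to 5.87 CPM in lateral petals. Dorsal petals, stamens, lateral sepals and ventral sepals held at most 0.43 CPM. In dorsal sepals 1 of the 3 libraries stood at 52.5 CPM, with the others at 0 and 0.292 CPM. The sepal log2 change of 3.98 passed (edgeR adjusted p = 0.0437), but lateral and ventral sepals had no count at S10, so its size is uncertain. In petals and stamens the change did not pass (edgeR adjusted p = 0.113 and 0.909). The carpel step, from no count at S10, lay 9.26 above the mean of the other organs, which did not pass edgeR's test. At S16 it was present in every petal library, at 48.9 to 79.9 CPM in dorsal petals and 93.5 to 184 CPM in lateral petals. Every S16 sepal library held it too, at 2.20 to 31.6 CPM. On the same scale S12 carpels stood at 29.3 to 80.5 CPM, so the S16 petals lay within or above the range of the S12 carpels.

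The largest gain in CPM belonged to DN44309_c0_g2_i2|m.53263. Its level in carpels was 33.9 and 48.9 CPM at S9, and 357, 227 and 479 CPM at S10. It reached 1901, 1495 and 1476 CPM at S12, and 2373, 2008 and 3496 CPM at S16, the last in S16 replicate 3. Each S12 library lay above every S10 library, and the S12 and S16 ranges did not overlap either. The log2 change from S10 to S12 was 2.20 ± 0.32 (standard error, edgeR, adjusted p = 0.0286), and 2.22 without S10 replicate 1 and S16 replicate 3 (edgeR adjusted p = 0.0026). The same feature was higher at S12 in petals, by 3.53 on the log2 scale (edgeR adjusted p = 9.4e-07), and in sepals, by 2.06 (0.0006). In stamens it went from 75.4, 132 and 380 CPM to between 653 and 680 CPM, a log2 change of 1.75 that did not pass (edgeR adjusted p = 0.376). Its carpel step was 0.26 below the mean step of the other 3 organs on the log2 scale, a difference that did not pass (edgeR adjusted p = 0.939).

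Among the features that fell, DN45212_c0_g1_i2|m.65159 had the largest fold change. It stood at 127 and 76.7 CPM in carpels at S9. At S10 the 3 libraries stood at 118, 22.7 and 37.7 CPM, with S10 replicate 1 the highest. At S12 the level was 0, 0.223 and 0 CPM, from 3 counts in 1 library, and all 3 S16 libraries were at 0. The ratio of S10 to S12 was 661, with a 95% counting interval of 226 to 3211, and the edgeR adjusted p was 0.0198. Of the 1124 counts at S10, 805 lay in S10 replicate 1, and all 3 counts at S12 lay in replicate 2. The fitted log2 change of -9.13 became -8.14 without S10 replicate 1 (edgeR adjusted p = 0.0089) and -8.11 without S10 replicate 1 and S16 replicate 3 (0.00016). Without S12 replicate 2 no count was left at S12, and the feature did not pass (edgeR adjusted p = 0.107). This feature was far more abundant in stamens, where S10 libraries held 6577 to 7523 CPM and S12 libraries 5.75 to 635 CPM, scaled with all 85 wild-type libraries. It went from at least 2.28 CPM in each sepal library and at least 6.94 CPM in each petal library at S10 to 0 in most S12 libraries of both organs, with an S12 maximum of 3.47 CPM in ventral sepals. The summed level of the stamen-enriched features in carpels was 2541, 1824 and 2079 CPM at S10 and 1765, 1647 and 1831 CPM at S12, again highest in S10 replicate 1. The part of stamen RNA in the fall of this feature was not tested.

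The largest loss in CPM was that of DN45018_c0_g2_i1|m.62592. It stood at 2296 and 2631 CPM at S9 and at 2514, 2523 and 3302 CPM at S10. At S12 it stood at 784, 624 and 1149 CPM, and at S16 at 437, 460 and 684 CPM. The S10 level lay near that of S9, and the 3 S12 libraries lay below all earlier ones. The S12 and S16 ranges overlapped through S16 replicate 3 alone. The log2 change from S10 to S12 was -1.71 ± 0.28 (standard error, edgeR, adjusted p = 0.0342), and -1.76 without S10 replicate 1 and S16 replicate 3 (edgeR adjusted p = 0.0024). Petals and sepals showed lower levels at S12 too, with log2 changes of -3.47 and -3.19 (edgeR adjusted p = 5.3e-08 and 8.1e-07). In stamens the log2 change of -1.86 did not pass (edgeR adjusted p = 0.144). The carpel step was 1.14 above the mean step of the other organs, which did not pass (edgeR adjusted p = 0.394).

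**Figure D3:**
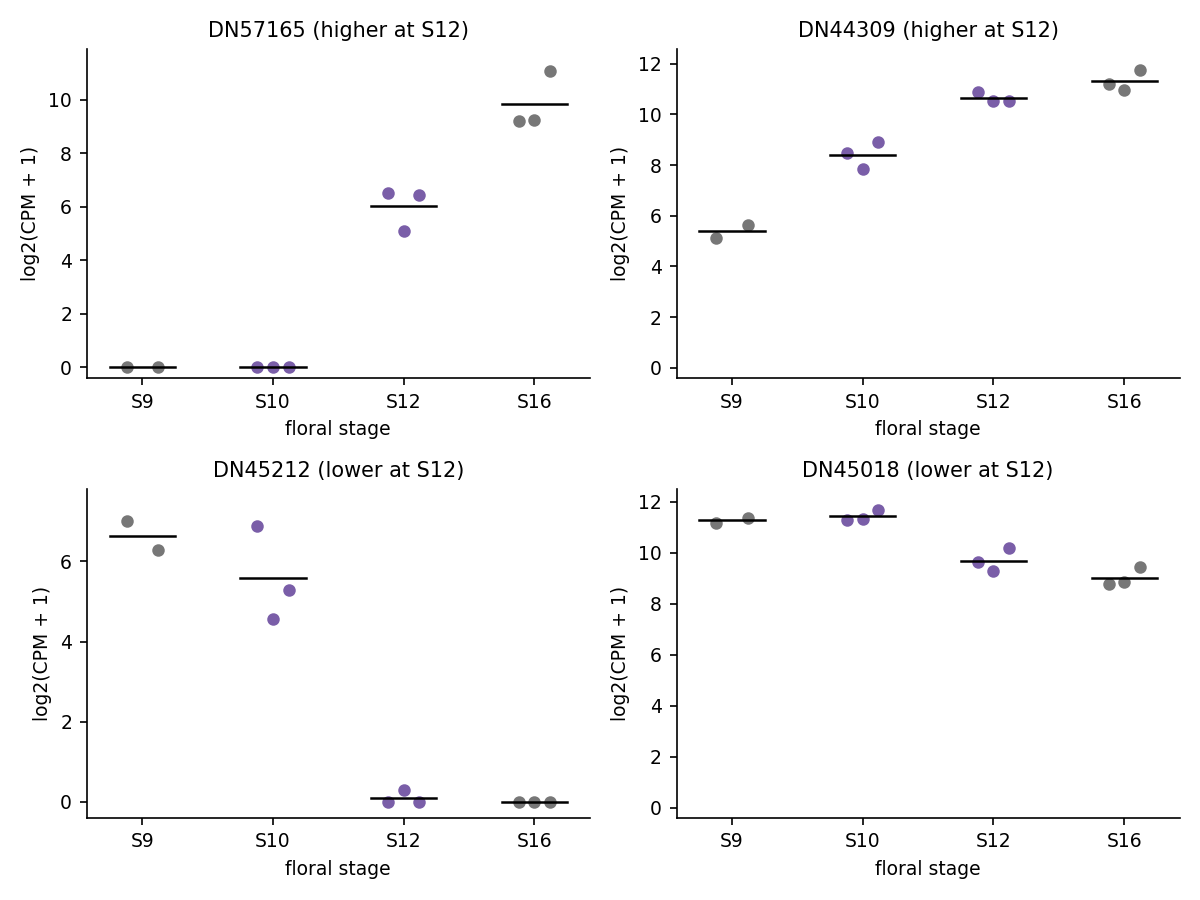
Levels of the 4 named features in each of the 11 carpel libraries by floral stage, as log2(CPM + 1), with a line at the mean of each stage; S10 and S12 points are purple. The 3 S12 points of DN57165 and DN44309 lie above all S10 points, and those of DN45212 and DN45018 lie below them.

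Only 2 of the 25 features that rose, DN57165 and 1 other, had no count in any S10 library, and all 29 that fell had a count in at least 1 S12 library. Mean levels of the 25 ran from 0 to 375 CPM at S10 and from 8.19 to 1624 CPM at S12. Mean levels of the 29 ran from 18.1 to 2780 CPM at S10 and from 0.0743 to 852 CPM at S12. Summed over the 25, the level was 1599, 1388 and 1669 CPM in the S10 libraries and 7739, 5612 and 5696 CPM in the S12 libraries. Summed over the 29, it was 9375, 7905 and 10384 CPM at S10 and 2319, 2324 and 3013 CPM at S12. S10 replicate 1 lay between its replicates in both sums. Feature by feature, it lay below both other S10 libraries for 9 of the 25 and above both for 5, and it lay above both for 16 of the 29 and below both for 8. Of single features, 6 of the 25 risers had no count in that library. A faller could not lack a count there, since every S10 library of the 29 lay above its S12 libraries. Shares of all tested features are not given for these positions, so nothing is read from them. Each of the 25 and each of the 29 belonged to a different assembly gene, and 6 and 8 of them to a gene with more than 1 feature. Reads shared within such a gene could make the value of a single feature uncertain, which was not tested. The share of all tested features in such genes is not given here.

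Few features went from no count to a clear level. With no count in the 3 S10 libraries and at least 1 CPM in each S12 library, 99 features were counted, and 3 features showed the reverse. In S10 replicates 2 and 3 alone the numbers were 112 and 19. Of the 99, 2 passed the test with all 11 libraries, where 0.126% of all tested features were higher. Without S10 replicate 1 and S16 replicate 3, 75 passed, where 7.04% of all tested features were higher. The 99 were chosen on the libraries that the test compares, so nothing is read from these counts. Only 9 of the 99 also had no count in both S9 libraries, 19 were at 1 CPM or more in both S9 libraries, and 33 were at 1 CPM or more in all S16 libraries. Of the 3 features that were lost, all 3 stood at 1 CPM or more at S9 and had no count at S16. The difference in depth between the stages bears on these numbers, since 3 counts amount to between 0.456 and 0.607 CPM in an S10 library and between 0.236 and 0.42 CPM in an S12 library. A further 3664 features had no count in S10 replicate 1 and at least 1 CPM in the other 5 libraries, against 13 for S10 replicate 2 and 88 for S10 replicate 3.

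The changes of the S10 to S12 step were also seen when carpels of S16 were compared with carpels of S9, a comparison that uses none of the 6 libraries. In that comparison 572 features (2.88%) were higher and 566 (2.85%) lower at S16 over all features tested. Of the 25 features that rose from S10 to S12, 24 were higher at S16 than at S9 and 0 were lower, with a median log2 change of 4.50 against -0.005 over all tested features. For all 25, each S16 library lay above both S9 libraries. Of the 29 that fell, 26 were lower at S16 and 0 were higher, with a median of -2.60, and the S16 libraries of 28 lay below both S9 libraries. The remaining faller had a log2 change of 0.30 from S9 to S16 and did not pass. Without S10 replicate 1 and S16 replicate 3, 24 of the 25 were higher and 28 of the 29 lower at S16. Both contrasts were taken from 1 fit and share its estimate of the spread. For the larger lists, called without S10 replicate 1 and S16 replicate 3, 929 of the 1384 (67.1%) were higher and 7 lower at S16, where 14.9% of all tested features were higher. Of the 1092, 864 (79.1%) were lower and 4 higher, where 14.2% of all tested features were lower.

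The stages on either side showed where the lists stood before and after the step. The median level of the 25 risers was 3.48 and 3.95 in the S9 libraries on the log2(CPM + 0.5) scale, 4.22 to 4.86 at S10, 6.70 to 7.12 at S12 and 7.34 to 7.69 at S16. The medians of the 29 fallers were 6.94 and 7.19 at S9, 6.71 to 6.87 at S10, 4.44 to 5.30 at S12 and 4.37 to 4.71 at S16. The step from S10 to S12 is the one the lists were chosen on, so only the S9 and S16 values are free of the choice. In the larger lists, the 1384 had medians of 4.57 and 4.31 at S9 and of 5.84 and 5.87 in S16 replicates 1 and 2, and the 1092 had 5.59 and 5.82 at S9 and 4.22 and 4.23 at S16.

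**Figure D4:**
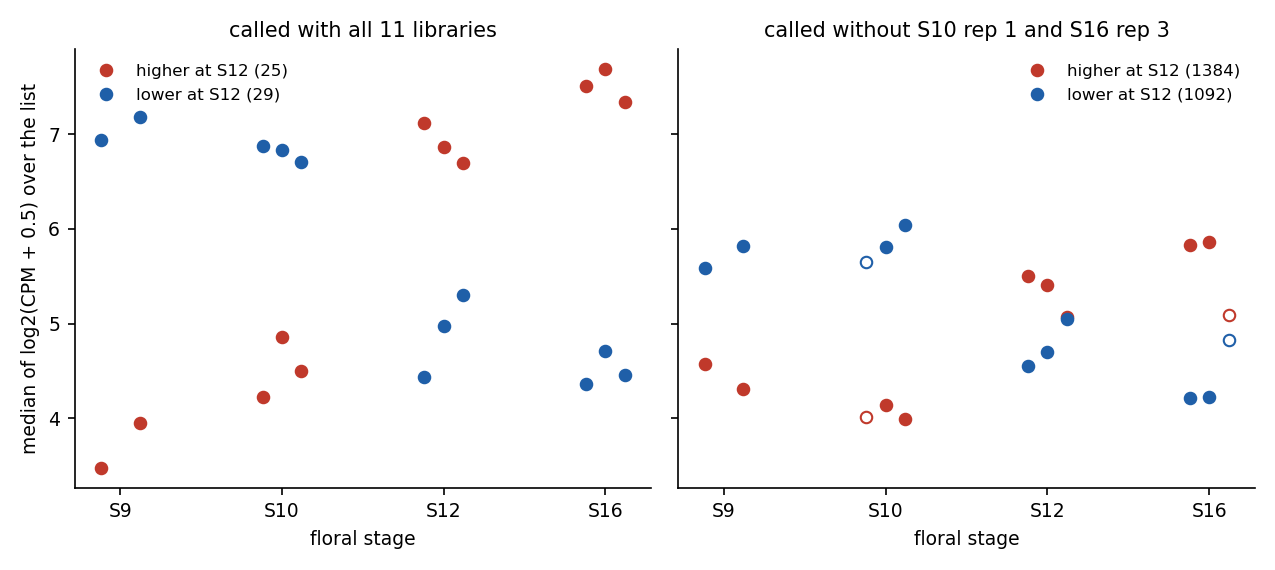
Median level over each list in each carpel library by floral stage, as log2(CPM + 0.5), for the 25 and 29 features found with all 11 libraries (left) and the 1384 and 1092 found without S10 replicate 1 and S16 replicate 3 (right, the libraries left out as open circles). The features higher at S12 (red) lie higher at S16 than at S9 and those lower at S12 (blue) lie lower, in both panels; the S10 and S12 values chose the lists.

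The organs around the carpels went through the same stages, and petals and sepals showed most of the 54 changes as well. Petals had 2949 features higher (13.5%) and 2791 lower (12.8%) at S12 than at S10, as a mean of the dorsal and lateral petals, and sepals had 1223 higher (5.64%) and 1214 lower (5.6%), as a mean of the dorsal, lateral and ventral sepals. Of the 25 carpel risers, 18 (72%) rose in petals and 0 fell, and 16 (64%) rose in sepals and 1 fell. Of the 29 carpel fallers, 23 (79.3%) fell in petals and 0 rose, and 18 of the 28 tested in sepals (64.3%) fell and 0 rose. In both petals and sepals, 13 of the 25 rose and 18 of the 29 fell, while 4 and 6 passed in neither organ in the direction of carpels. The median log2 change of the risers was 2.26 in petals and 1.55 in sepals, against 0.04 and 0.003 over all tested features. The median of the fallers was -3.08 in petals and -3.17 in sepals, lower than their carpel median of -2.005.

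Stamens gave fewer calls, in a comparison with 87 features higher (0.426%) and 263 lower (1.29%). Of the 25 risers, 2 rose in stamens and 0 fell, with 19 log2 changes above 0 and a median of 1.16. Of the 29 fallers, 0 fell and 1 rose, with 25 log2 changes below 0 and a median of -1.93. With stamen libraries under 16000 features left out, stamens had 1462 features higher (6.73%) and 1529 lower (7.04%). In that setting 13 of the 25 (52%) rose and 1 fell, and 8 of the 29 (27.6%) fell and 2 rose, so the counts in stamens depended on those libraries. Likewise 242 of the 1378 tested risers of the larger carpel list (17.6%) rose in stamens and 49 fell, and 247 of 1075 tested fallers (23%) fell and 32 rose. With such libraries left out in the other organs too, 19 of the 25 rose in petals and 19 in sepals, and 25 and 22 of the 29 fell. There 54.3% of the larger list's risers rose in petals and 37.2% in sepals, where 17.5% and 10.5% of all tested features did. Likewise 69.6% of its fallers fell in petals and 54.8% in sepals, where 16.1% and 10.5% of all features did. Across features, the carpel step correlated with the step of petals at Pearson's r = 0.491 (19588 features), of sepals at 0.426 (19456) and of stamens at 0.335 (18816), which describes features of 1 assembly and not independent replicates.

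**Figure D5:**
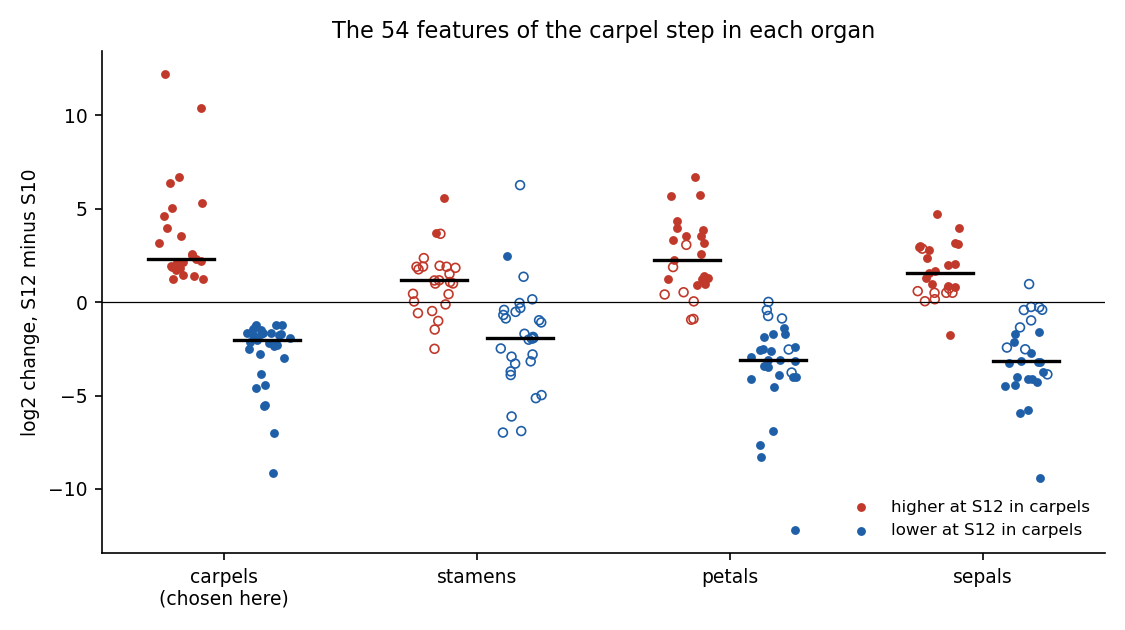
Log2 change from S10 to S12 of the 25 features that rose (red) and the 29 that fell (blue) in carpels, in carpels themselves and in stamens, petals and sepals, with a line at each median. Filled points passed adjusted p under 0.05 in that organ and open points did not; medians of the risers lie above 0 and those of the fallers below 0 in every organ, with few filled points in stamens.

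A minority of the carpel changes differed from those of the other organs when the difference itself was tested. The carpel step was set against the mean step of stamens, petals and sepals in 1 edgeR fit of the 42 S10 and S12 libraries, and lay above it for 370 features (1.7% of 21731) and below it for 205 (0.943%). The risers and fallers were chosen on the carpel libraries that also enter this difference, so their direction in it is partly fixed by the choice and nothing is read from the balance. Among the 25 risers the carpel step was above that of the other organs for 9 and below for 0. Among the 29 fallers it was below for 3 and above for 1, that is, 1 feature fell less in carpels than elsewhere. The test can miss a difference where a whole group has no count, since the fitted log2 change is then unbounded. Such features are 3 of the 25 and 4 of the 29, DN57165 and DN45212 among them, against 2854 of all 21731 tested. Without S10 replicate 1 of carpels and S10 replicate 1 of stamens, 292 features lay above (1.3%) and 221 below (0.985%), and 7 of the 25 lay above and 0 below, and 4 of the 29 below and 1 above. Of the 1384 risers of the larger list 116 lay above (8.38%) and 4 below, and of the 1088 tested fallers 47 lay below (4.32%) and 21 above.

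Among the 9 risers that passed this test, the one with the largest difference rose in carpels by 5.29 on the log2 scale (standard error 0.94, edgeR adjusted p = 0.047), fell in sepals (-1.77, edgeR adjusted p = 0.0402) and had log2 changes of -0.94 in petals and 0.43 in stamens, which did not pass. Its carpel step lay 6.05 above the mean of the others (edgeR adjusted p = 0.00072). Another rose in all of carpels, petals and sepals, but by 6.40 in carpels against 1.29 and 1.55, and lay 4.94 above. Both risers stood at 0, 0.625 and 0 CPM in the S10 carpels, so the sizes of their log2 changes are uncertain. At S12 the first stood at 5.42 to 14.5 CPM and the other at 17.2 to 24.1 CPM. The 9 risers of this kind lay between 1.08 and 6.05 above the other organs. Among the 3 fallers that passed below the other organs, the one with the largest difference had a log2 change of -3.01 in carpels (standard error 0.39, edgeR adjusted p = 0.0198) and lay 2.88 below the others, none of which passed on its own. A second faller fell by 1.76 in carpels and rose by 2.47 in stamens (edgeR adjusted p = 0.0322 and 0.0177). The faller that lay above, by 2.65, had a log2 change of -1.35 in carpels against -3.98 in petals and -5.91 in sepals. These 5 features are described by their values, chosen after those were seen, and are not named.

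Among features typical of the carpel, 5 moved. Of the 84 carpel-enriched features, all tested, 1 rose and 4 fell, and the median log2 change was -0.44, against 0.15 over all tested features. That is 1.19% and 4.76%, where 0.126% and 0.146% of all tested features rose and fell. Without S10 replicate 1 and S16 replicate 3, 7 of the 84 rose (8.33%, against 7.04% of all tested features) and 20 fell (23.8%, against 5.56%), with a median of -0.18 against 0.08. Their summed level was 14489, 12427 and 14988 CPM in the S10 libraries and 10674, 9897 and 10577 CPM in the S12 libraries, so the groups did not overlap. From 27.5 and 18.5 CPM at S9, the riser among them stood at 82.3, 83.6 and 108 CPM at S10 and at 468, 286 and 275 CPM at S12. At S16 it stood at 534 and 511 CPM in replicates 1 and 2 and at 993 CPM in S16 replicate 3. The 4 fallers took different courses. The steepest went from 181, 254 and 324 CPM at S10 to 7.61, 1.86 and 6.504 CPM at S12, having stood at 327 and 471 CPM at S9, and was at most 0.687 CPM at S16. A second fell from 11.7 to 21.4 CPM at S10 to at most 1.597 CPM at S12 and stood at 6.11 to 7.97 CPM at S16. The other 2 went from 61.3, 125 and 139 CPM to between 21.1 and 27.2 CPM, and from 63.1, 73.0 and 80.4 CPM to between 9.30 and 24.8 CPM, and both stood at 3.36 to 5.01 CPM at S16. Since S9 and S16 carpels define this list, features that are high at only the middle stages cannot be in it.

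The summed levels of leaf and bract features were higher in all S12 libraries than in all S10 libraries. The 30 leaf-enriched features summed to 885, 1165 and 1356 CPM at S10 and to 2104, 1951 and 1743 CPM at S12. Of the 30, 27 had a log2 change above 0, with a median of 0.82, and 0 passed edgeR's test in either direction; 10 (33.3%) were higher and 0 lower at an unadjusted p under 0.05, against 9.2% and 6.24% of all tested features. DESeq2 called 4 of the 30 higher (13.3%), against 2.46% of all features with a count. Without S10 replicate 1 and S16 replicate 3, 12 of the 30 were higher (40%, against 7.04% of all tested features) and 0 lower. The 45 bract-enriched features summed to 359, 230 and 243 CPM at S10 and to 495, 402 and 461 CPM at S12, and of the 32 tested 1 rose (3.12%, against 0.126% of all tested features) and 0 fell. Without the pair of libraries 6 of the 32 rose (18.8%) and 2 fell (6.25%, against 5.56%). Leaves themselves held 8478 to 15800 CPM of the leaf-enriched features, on the scale of all 85 wild-type libraries, and carpels at most 3390 CPM. On that scale bracts held 8304 to 16380 CPM of the bract-enriched features. Single libraries of sepals, petals and stamens reached 14690, 9732 and 5400 CPM of these, so high sums were not confined to bracts. In S10 replicate 1, with the highest S10 sum of the bract list, 35 of the 45 had no count, against 21 and 29 in S10 replicates 2 and 3.

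In the lists of the other floral organs at most 1 feature rose and 1 fell per list with all 11 libraries, where 0.126% and 0.146% of all tested features did. Of the 73 tested sepal-enriched features, 1 rose and 1 fell, and without the pair of libraries 3 rose and 3 fell of 72 (4.17% each, against 7.04% and 5.56% of all tested features). Of 10 tested petal-enriched features 0 passed edgeR's test. At an unadjusted p under 0.05, 2 were higher (20%, against 9.2% of all tested features) and 3 lower (30%, against 6.24%). DESeq2 called 1 higher (10%, against 2.46% of all features with a count) and 2 lower (20%, against 2.33%). Without the pair 1 of 9 petal-enriched features rose (11.1%, against 7.04% of all tested features) and 3 fell (33.3%, against 5.56%). Of the 278 tested stamen-enriched features, 0 rose and 1 fell. By edgeR's unadjusted p under 0.05, 14 were higher (5.04%, against 9.2% of all tested features) and 34 lower (12.2%, against 6.24%). DESeq2 called 5 higher (1.8%, against 2.46% of all features with a count) and 15 lower (5.4%, against 2.33%). Without the pair 8 of 272 rose (2.94%, against 7.04% of all tested features) and 19 fell (6.99%, against 5.56%). The stamen-enriched faller stood at 279, 43.3 and 81.3 CPM at S10, with S10 replicate 1 the highest, and at 0.94, 1.71 and 0.271 CPM at S12. It reached 22460 CPM in a stamen library, and whether stamen RNA in the S10 carpels has a part in its fall was not tested.

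The organ with the highest level outside carpels was petals for the largest share of the fallers, and bracts for the largest share of the risers of the larger list. In numbers, 14 of the 29 fallers had their highest mean level in petals, as did 16.5% of all tested features. Of the 1092 fallers of the larger list, 38.9% had it in petals. Among the 25 risers the most frequent organ was the sepal, with 9, against 15.6% of all tested features, whereas 10.2% of the risers of the larger list had it in sepals. Of the 1384 risers of the larger list, 34.5% were highest in bracts and 30.6% in leaves, against 18.3% and 22.2% of all tested features.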

How the data were processed

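Per the labels' protocols, the RNAprep Pure Plant Kit served for extraction and a Fast RNA-seq Lib Prep Kit (V2) for library construction. TopHat2 and RSEM are named in the submitters' processing notes. Roles, reference, annotation and strandedness were not given in the sources consulted. The authors deposited unnormalized estimated counts for each feature, of which 94.1% to 98.8% were whole numbers, and these were rounded. Carpel totals ran from 4944386 to 13292619.

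Features were tested with edgeR 4.0.16 (R 4.3.3): trimmed mean of M-values scaling, filterByExpr, robust quasi-likelihood fits with 1 mean per group, all 11 carpel libraries in the fit, two-sided F tests and Benjamini-Hochberg adjustment over all features tested (threshold 0.05). Stamens (11 libraries), petals (22) and sepals (33) were fitted alike. The standard error is the log2 change divided by the square root of F. Fold changes against groups with no count use a floor of 3 counts over the group; intervals cover counting error only. Organ-enriched features came from edgeR contrasts in the 79 wild-type libraries outside the 6. DESeq2 1.42.0 and limma 3.58.1 (voom weights) served as alternatives. The scripts were tested on simulated data. The replicate pairs within S10 and within S12 carpels differed by at least 15.2 in chi-square per feature; other pairs were not compared in this way. Named features are, in each direction, those with the largest log2 change and the largest difference in mean CPM among features past the threshold whose groups did not overlap and whose mean reached 1 CPM.

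The members, lists and tests were chosen with earlier results of these data known.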

Additional observations from a re-analysis of the deposited data

Results flagged for a closer look

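Tests of the difference between organs drew attention to features whose change from S10 to S12 was not the same in carpels as in stamens, petals and sepals. By edgeR's interaction test over the 42 S10 and S12 libraries, 370 features had a carpel step above the mean step of the other organs and 205 had one below it. Of the 25 features that rose in carpels 9 were among those above, and of the 29 that fell 3 were among those below and 1 was among those above, in lists chosen on carpel libraries that also enter the test. The rise of 1.08 to 6.05 over the other organs among the 9 is a difference of log2 changes. Of the 370 and 205 features together, 80 have an S10 or S12 group with no count, as do 2854 of all 21731 tested. Groups of 2 or 3 libraries were not tested for a single outlying value; in the carpel fit, limma's sample quality weights were 0.0571 for S10 replicate 1 and 0.0975 for S16 replicate 3, against 0.719 to 4.63 for the other 9 libraries. The values of the 4 virus-induced gene silencing libraries were not used.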

How the results depend on the processing

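For S12 against S10 in carpels, the 25 higher and 29 lower features became 634 and 601 with DESeq2, 0 and 1 with only the 6 libraries in the fit, 304 and 234 without carpel libraries under 19000 features (1 library left at S10), 1073 and 1669 with voom weights, and 124 and 21 with all 85 wild-type libraries in 1 fit. With only the 6 libraries, 2602 features had an unadjusted p under 0.05 and DESeq2 called 512 higher and 635 lower. Chosen after seeing the data, leaving out libraries under 16000 features gave 1384 and 1092, and the S10 and S12 libraries alone without S10 replicate 1 gave 373 and 441. Leaving out 1 library gave 0 to 277 higher and 0 to 315 lower with 11 libraries, and 304 to 2406 and 234 to 2240 with 9, where DESeq2 gave 2181 and 1685.

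Same-numbered replicates did not deviate together (r = -0.004, -0.023 and 0.062), and differently numbered ones had r from -0.066 to 0.055. With 3 libraries per stage, 1 of them outlying at S10, these values cannot exclude a link between same-numbered libraries. The replicate block gave 21 higher and 45 lower features in the carpel step.

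For S16 against S9 (572 and 566), DESeq2 gave 1489 and 1129, only the compared libraries gave 376 lower, the 19000-feature limit gave 3382 and 3006, the 16000-feature limit 2931 and 2787, and single libraries left out 101 to 1273 and 142 to 1185. For the difference between organs (370 and 205), DESeq2 gave 951 and 590, all 85 libraries 58 and 48, and single carpel libraries left out 145 to 1009 and 59 to 356. For stamens, DESeq2 gave 441 and 980, the 16000-feature limit 1462 and 1529, and single libraries 22 to 67 and 115 to 219. For petals, single libraries left out gave 2166 to 2877 and 2143 to 2665. For sepals, DESeq2 gave 2051 lower, the 16000-feature limit 2408 and 2391, and single libraries 932 to 1310 and 907 to 1252. The cause was not tested for any of these. The 4 named features lost adjusted p under 0.05 in 6, 6, 6 and 11 of 23 alternatives (DN57165, DN44309, DN45212 and DN45018). Their direction was kept in all 23. They were chosen for large changes without overlap between the stages, which a refit of the same libraries could hardly reverse, so nothing is read from that.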
